A study of Mus musculus with 20 samples.

Results

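Mammary glands of 10 mice given tamoxifen were compared with those of 10 mice given placebo, which is all 20 animals of the study, with 1 array for each animal. All were FVB/N females heterozygous for the Nrl-TGFα transgene, all from 1 transgenic line, in which the neu-related lipocalin promoter drives transforming growth factor alpha in mammary epithelium, and no mouse without the transgene was measured. At 8.5 weeks of age each received a subcutaneous implant that released 5 mg of tamoxifen or held carrier only, and mice were assigned in turn. One number 4 gland without a tumor was taken at 20.5 to 21 weeks, 4 weeks after treatment had ended, and the mouse was then watched for mammary tumors to at most 2 years of age. Later tumors were recorded in 7 of 10 placebo and 3 of 10 tamoxifen animals. The treatment difference was therefore fitted alone and with later outcome as a covariate, although outcome came after sampling and may itself follow from treatment. A whole gland was measured, so fewer cells of a type and less RNA per cell cannot be told apart.

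Tamoxifen binds the oestrogen receptor and acts as an antagonist in breast epithelium and as a partial agonist in some other tissues. In the mammary gland, oestrogen acts through hormone-sensing luminal cells, which signal to neighbouring progenitors, while prolactin acts through Jak2 and Stat5 to switch on milk protein genes in alveolar cells. TGFα is a ligand of the epidermal growth factor (EGF) receptor, which drives growth of mammary epithelium. The gland also holds fat, fibroblasts, vessels, lymphocytes and often a lymph node, and the number 4 gland lies against body wall muscle.

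Values are log2 expression, and a difference is tamoxifen minus placebo on that scale unless said otherwise. Genes were tested with limma, and "passed" means a Benjamini-Hochberg adjusted p under 0.05 over the 12499 genes tested. The only gene that passed was Akr1cl, which is 0.008% of the genes tested. At an unadjusted p under 0.05 there were 869 genes higher with tamoxifen (6.95%) and 870 lower (6.96%), together 13.9%, and these shares are the background for every list below. With outcome in the fit the shares were 3.61% higher and 3.8% lower. Without placebo animals 7, 8 and 9 they were 4.22% and 6.11%, within animals numbered 1 to 5 6.24% and 7.98%, and within animals numbered 6 to 10 3.38% and 3.58%. Over all genes 50.5% had a higher mean with tamoxifen, 47% had a higher fitted value with outcome in the fit, and the median difference was 0.0011. Array medians lay between 6.82 and 6.89, and placebo animals 7, 8 and 9 stood apart on the first principal component (-30.94, -41.13 and -14.64, against -7.19 to 12.65 in the other animals). Placebo animals 7, 8 and 9 all had later tumors, so every fit without them also changes the balance of outcomes and has fewer animals.

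Akr1cl encodes a member of the aldo-keto reductases, a family of enzymes that reduce carbonyl groups on steroids and other substrates. It lies on chromosome 1 at 65013078 to 65032759 of GRCm38.p6 (Entrez ID 70861). The 4 promoter windows below come from RefSeq on GRCm38.p6 and run from 250 bases before to 50 bases after each gene's start. They are shown because Akr1cl carried the only call and the casein genes had the largest differences downwards. In Akr1cl (chr1:65032710-65033009, minus strand) capitals mark the 50 bases after the start. In Csn2 (chr5:87699376-87699675, minus strand), Csn1s1 (chr5:87665958-87666257, plus strand) and Csn1s2a (chr5:87774200-87774499, plus strand), capitals mark the match to the Stat5 motif TTCNNNGAA, which reads the same on both strands.
Akr1cl: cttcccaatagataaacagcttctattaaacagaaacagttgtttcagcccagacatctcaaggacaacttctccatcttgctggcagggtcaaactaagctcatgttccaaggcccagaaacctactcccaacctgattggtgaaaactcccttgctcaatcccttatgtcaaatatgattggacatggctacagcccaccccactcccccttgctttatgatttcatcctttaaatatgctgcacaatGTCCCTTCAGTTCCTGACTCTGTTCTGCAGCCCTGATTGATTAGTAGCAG
Csn2: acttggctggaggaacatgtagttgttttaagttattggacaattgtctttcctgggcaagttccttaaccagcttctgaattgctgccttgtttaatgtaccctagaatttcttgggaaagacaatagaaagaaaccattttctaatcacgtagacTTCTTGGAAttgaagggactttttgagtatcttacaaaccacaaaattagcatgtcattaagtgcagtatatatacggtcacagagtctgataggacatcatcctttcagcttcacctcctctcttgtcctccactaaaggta
Csn1s1: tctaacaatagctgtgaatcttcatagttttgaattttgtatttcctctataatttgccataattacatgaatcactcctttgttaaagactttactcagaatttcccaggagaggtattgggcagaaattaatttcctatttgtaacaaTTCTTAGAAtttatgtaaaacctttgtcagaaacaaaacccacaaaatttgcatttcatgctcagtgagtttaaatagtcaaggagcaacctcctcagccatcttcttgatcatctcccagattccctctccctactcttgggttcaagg
Csn1s2a: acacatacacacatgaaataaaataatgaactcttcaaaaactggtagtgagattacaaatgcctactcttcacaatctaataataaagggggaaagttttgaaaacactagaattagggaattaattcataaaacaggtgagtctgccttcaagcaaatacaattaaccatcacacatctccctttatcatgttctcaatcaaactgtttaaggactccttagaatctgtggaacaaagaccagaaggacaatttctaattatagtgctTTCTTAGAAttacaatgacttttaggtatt
Counted from the start site, the Stat5 match began at position -93 in Csn2, -100 in Csn1s1 and 21 in Csn1s2a. Such a match was present in 2726 of 32851 promoter windows (8.3%) and in 10 of the 154 windows of the 124 named genes that had one. Besides the caseins, the named genes with a match were Atp2a1, Muc13 and Fcgr1, with higher means under tamoxifen, and Esr1, Aldoc, Gzmb and Notch3, with lower means. The full oestrogen response element GGTCANNNTGACC was in 23 windows of all genes (0.07%) and in 0 of those 154. A match is a run of letters and not a measured binding site.

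Akr1cl ranged from 7.62 to 8.78 in placebo animals, with a median of 7.91, and from 8.31 to 12.57 in tamoxifen animals, with a median of 11.63. All 10 tamoxifen animals lay above the placebo median, and the lowest of them lay inside the placebo range. The means were 8.01 ± 0.38 and 10.89 ± 1.49 (SD, n = 10 each), and Akr1cl rose by 2.88 (SE 0.45), which is 7.36-fold (limma, adjusted p = 0.0319). Adjusted for outcome the difference was 2.36 (SE 0.41), and it no longer passed (adjusted p = 0.16). Tamoxifen animals without later tumors averaged 11.70 ± 0.80 (SD, n = 7) and those with later tumors 9.0 ± 0.63 (SD, n = 3). Placebo animals averaged 7.94 ± 0.22 (SD, n = 3) and 8.04 ± 0.45 (SD, n = 7) in the same order. The interaction (the treatment difference in animals with later tumors minus that in animals without) was -2.80 (SE 0.55), with an unadjusted limma p of 5.8e-05 and an adjusted p of 0.26. The gene's other probe set was dim, with means of 4.06 and 5.06.

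The call was lost in several other fits. Without placebo animals 7, 8 and 9 the difference was 2.77 and did not pass (adjusted p = 0.15). Within animals numbered 1 to 5 it was 2.21 (adjusted p = 0.19) and within those numbered 6 to 10 3.55 (adjusted p = 0.171, limma, 5 against 5 each). Removing a single animal ended the call in 9 of 20 such fits (placebo 2, 7, 9 and 10, and tamoxifen 4, 5, 6, 7 and 9).

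Among 22 steroid-metabolism and aldo-keto reductase genes listed, 12 were tested, with a median difference of 0.01. Akr1c13 was 0.21 higher and Akr7a5 0.11 lower at an unadjusted p under 0.05, and the other tested members besides Akr1cl lay between -0.27 and 0.18.

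**Figure D1:**
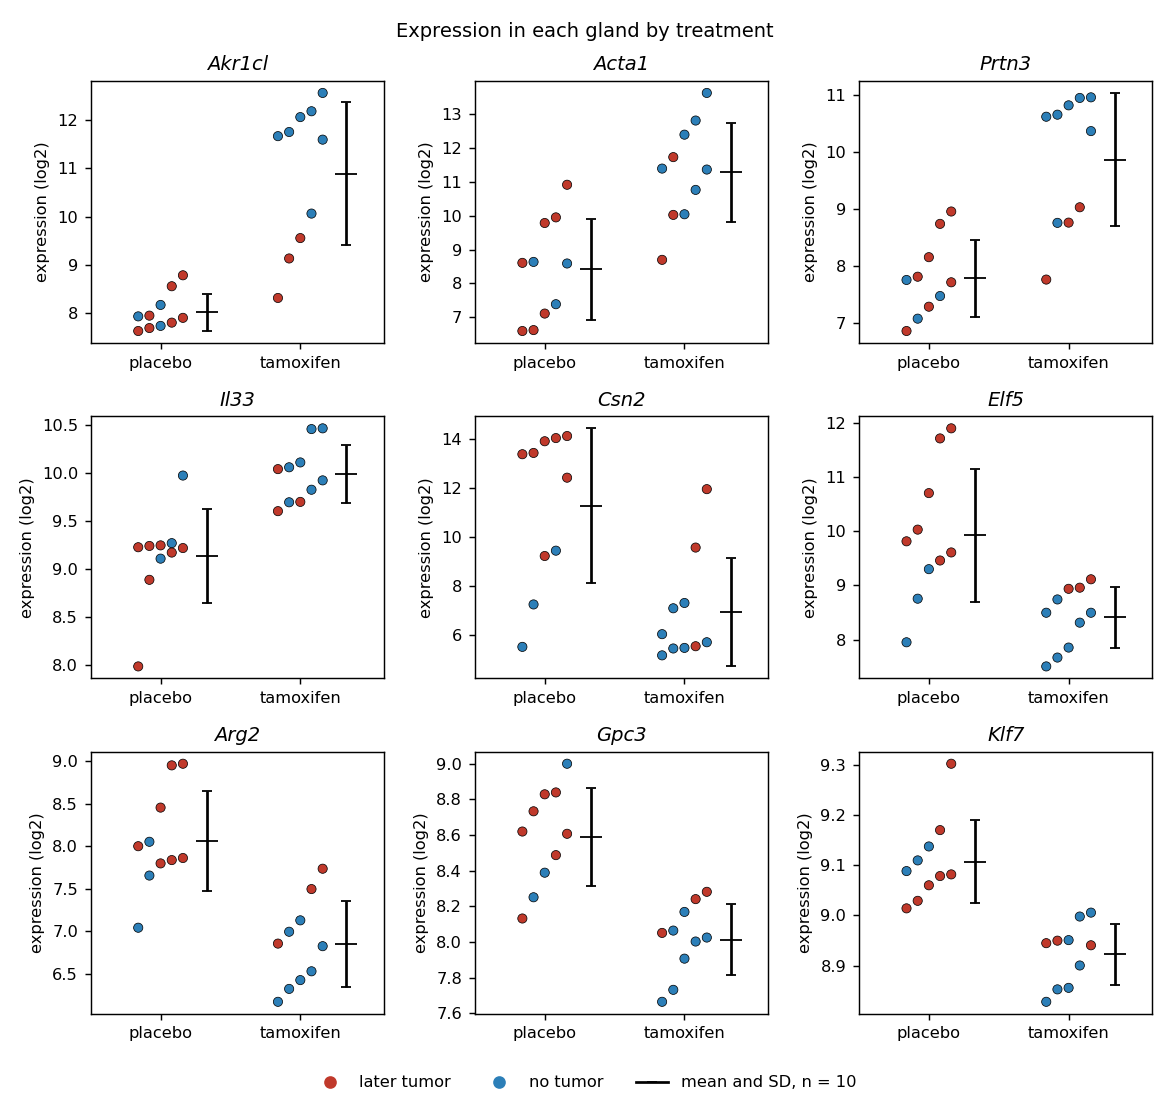
Log2 expression (y axes) of 9 genes in each of 10 placebo and 10 tamoxifen glands, coloured by later tumor outcome, with the mean and SD beside each group. Only Akr1cl passed, and Klf7 has no overlap between groups, while Csn2 spans from 5.53 to 14.13 in placebo animals.

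Below the one call, the genes with the largest moderated statistics missed the threshold narrowly. Of the 12 lowest statistics, 8 had an adjusted p of 0.0554 and the highest was 0.0707. Gpc3, a cell surface proteoglycan that binds growth factors, ranged from 8.13 to 9.0 (median 8.61) in placebo animals and from 7.66 to 8.28 (median 8.04) in tamoxifen animals. Every tamoxifen value was below the placebo median, but the ranges overlapped. The difference was -0.58 (SE 0.10), and -0.51 adjusted for outcome.

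Arg2, the mitochondrial arginase that splits arginine into ornithine and urea, ranged from 7.04 to 8.97 (median 7.93) with placebo and from 6.17 to 7.74 (median 6.84) with tamoxifen. Its difference was -1.22 (SE 0.23), a 2.32-fold lower level, and -0.93 adjusted for outcome. Arg1, the cytosolic arginase, differed by -1.0 and the ammonium transporter Rhbg by -0.49. Ampd3, an AMP deaminase, had the opposite direction, with 0.65 (SE 0.12). Of 13 arginine, urea and ammonium genes tested, these 4 had an unadjusted p under 0.05, 1 higher and 3 lower, and all 4 kept it with outcome in the fit.

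Klf7 and Stk25 were the only 2 tested genes (0.016%) in which no tamoxifen animal reached the range of the placebo animals. Klf7, a zinc finger transcription factor, ran from 9.01 to 9.30 with placebo and from 8.83 to 9.01 with tamoxifen, a difference of -0.18 (SE 0.04, adjusted p = 0.0554). Stk25, a protein kinase, ran from 8.33 to 8.53 and from 8.23 to 8.32, a difference of -0.14 (SE 0.03, adjusted p = 0.0706). Both differences were small but larger than the SD within either group (Klf7 0.08 and 0.06, Stk25 0.06 and 0.03, placebo first, n = 10 each). The remaining genes of this kind with lower values were Tpst1, a tyrosyl sulfotransferase (-0.24), the adhesion receptor Adgrg6 (-0.41), Fam174b (-0.29), the adaptor Nck2 (-0.50), the repressor Klf11 (-0.34), Etl4 (-0.49) and Sfrp2, a secreted Wnt binding protein (-1.13).

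On the side of higher values, Prtn3, a serine protease of neutrophil granules, ranged from 6.86 to 8.95 (median 7.73) with placebo and from 7.76 to 10.96 (median 10.49) with tamoxifen. Its difference of 2.09 (SE 0.40) was 4.25-fold and had an adjusted p of 0.0554, and it was 1.80 adjusted for outcome. The interaction of Prtn3 with outcome was -2.43 (limma, unadjusted p = 0.0012, adjusted p = 0.938). Il33, an alarmin cytokine of the interleukin-1 family, ranged from 7.99 to 9.97 (median 9.22) with placebo and from 9.60 to 10.46 (median 9.98) with tamoxifen, and only 1 placebo animal lay inside the tamoxifen range. Its difference was 0.85 (SE 0.17), and 0.70 adjusted for outcome. Nmu, the neuropeptide neuromedin U, ranged from 5.59 to 6.15 and from 6.09 to 8.90, a difference of 1.53 (SE 0.31). Adjusted for outcome it was 1.23, and the interaction was -1.80 (limma, unadjusted p = 0.00088, adjusted p = 0.938). Smaller differences were those of the phosphatase inhibitor Ppp1r14c (0.29), the mucin Muc13 (0.29), Cfap126 (0.40), the ion channel Asic2 (0.32), Smim5 (0.28) and 1110017D15Rik (0.73). The last, at 5.71 ± 0.10 (SD, n = 10) with placebo, also entered the test only through tamoxifen animals.

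**Figure D2:**
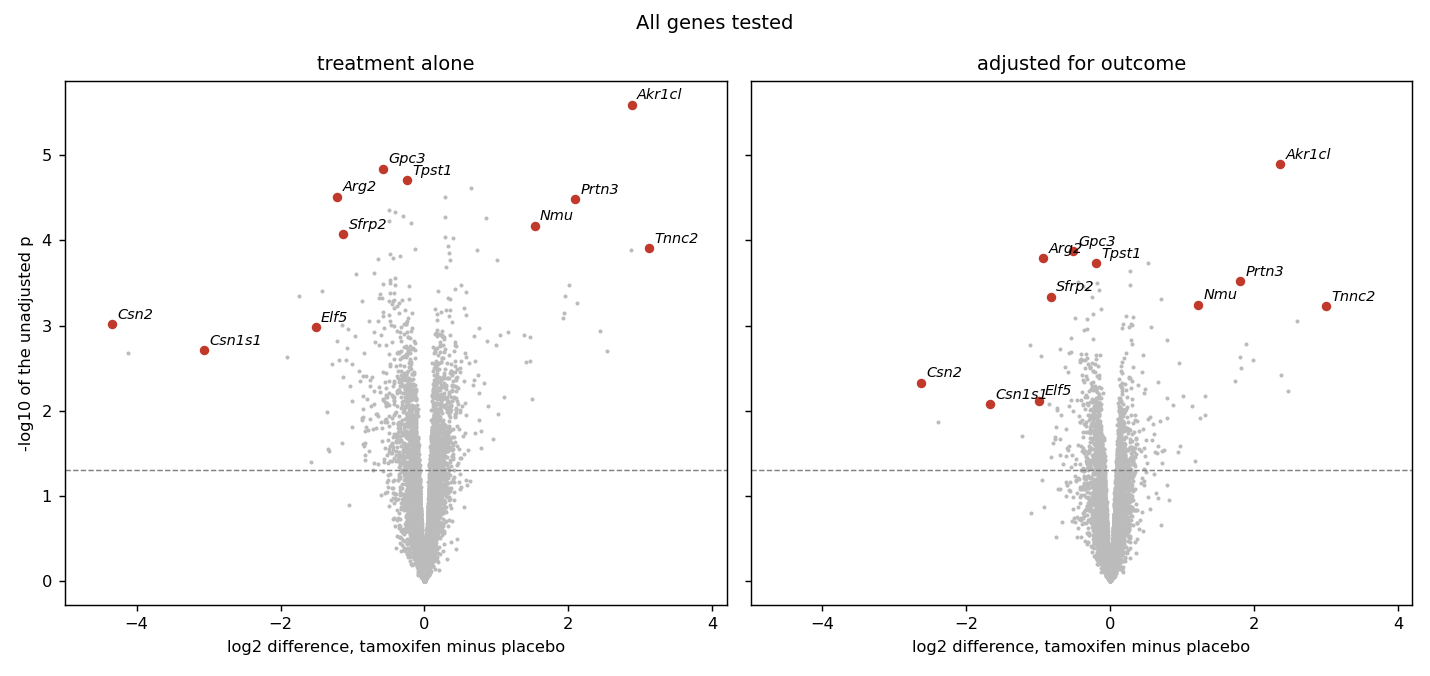
Each point is 1 of 12499 genes, with the log2 difference (tamoxifen minus placebo) on the x axis and -log10 of the unadjusted limma p on the y axis, for treatment alone (left) and adjusted for outcome (right). The dashed line is p = 0.05, and Akr1cl lies highest in both panels.

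Fast skeletal muscle genes, which encode the contractile machinery of fast-twitch fibres, had the largest list difference. All 12 members tested, of 13 listed, were higher at an unadjusted p under 0.05, none passed, and their median difference was 1.98. Tnnc2, fast troponin C, ranged from 5.15 to 9.5 (median 6.14) with placebo and from 7.15 to 12.74 (median 9.68) with tamoxifen, a difference of 3.12 (SE 0.66, adjusted p = 0.0706). Acta1, skeletal muscle actin, ranged from 6.59 to 10.91 (median 8.60) and from 8.70 to 13.62 (median 11.38), a difference of 2.86 (SE 0.61, adjusted p = 0.0706). The groups overlapped in both genes. Myosin heavy chains Myh4 and Myh1 differed by 2.44 and 2.54, troponins Tnni2 and Tnnt3 by 2.12 and 1.93, creatine kinase Ckm by 1.94, the light chain Mylpf by 2.01 and the calcium pump Atp2a1 by 1.95.

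The mean centred level of the muscle list ran from -1.73 to 0.64 in placebo and from -0.91 to 4.00 in tamoxifen animals. With outcome in the fit 11 of 12 members had an unadjusted p under 0.05 and the median was 1.85. Without placebo animals 7, 8 and 9 all 12 did, with a median of 2.12, and within animals 1 to 5 and 6 to 10 the counts were 12 and 10. Of 8 slow muscle genes only 2 were bright enough to test, with differences of 0.05 and -0.11. Muscle isoforms of glycolytic enzymes lay on the same side, Eno3 with 1.0 and Pgam2 with 0.88, as did Cox6a2, a muscle subunit of cytochrome oxidase, with 0.34. How far muscle RNA in the dissected gland has a part in other differences was not tested. As a description, the muscle list was also fitted as a covariate. In that fit Akr1cl differed by 2.32 (limma, adjusted p = 0.133). There 9 of 10 T cell genes were higher at an unadjusted p under 0.05, as were 6.54% of all genes. With the general epithelial genes described below as the covariate instead, 2 of 10 T cell genes were higher, as were 2.6% of all genes.

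Milk protein genes, which alveolar cells express in pregnancy and lactation, had the largest single differences downwards. Of 11 members tested, of 13 listed, 8 were lower at an unadjusted p under 0.05, and the median was -0.87. Csn2, beta-casein, ranged from 5.53 to 14.13 (median 12.91) with placebo and from 5.18 to 11.96 (median 5.88) with tamoxifen. The groups overlapped, although every tamoxifen value lay below the placebo median. The difference was -4.34 (SE 1.13), which did not pass (adjusted p = 0.129), and was -2.64 adjusted for outcome. Csn1s2a differed by -4.12 (SE 1.17) and Csn1s1 by -3.06 (SE 0.87). Both had Stat5 matches in the windows printed above, as had Csn2, but so had named genes with higher means under tamoxifen. Btn1a1, butyrophilin of the milk fat globule, differed by -1.42 (SE 0.34). Wap, whey acidic protein, ranged from 6.66 to 13.93 with placebo but had a placebo median of 7.12, close to the tamoxifen range of 6.54 to 7.0. With outcome in the fit 5 members kept an unadjusted p under 0.05, and the list median was -0.60.

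Luminal progenitor genes pointed downwards as well, with 0 higher and 5 lower of 11 tested at an unadjusted p under 0.05 and a median of -0.32. Elf5, the transcription factor of the alveolar lineage, ranged from 7.95 to 11.90 (median 9.71) with placebo and from 7.51 to 9.11 (median 8.50) with tamoxifen, a difference of -1.51 (SE 0.40, adjusted p = 0.131). Plet1 differed by -1.28, kappa-casein Csn3 by -1.22 and Lcn2, a lipocalin, by -0.82, while Kit, the receptor that marks these cells, had -0.28. Adjusted for outcome 3 members kept an unadjusted p under 0.05, and without placebo animals 7, 8 and 9 the list gave 3 lower, with a median of -0.21. Other large differences downwards were those of Muc15 (-1.91) and Wfdc18 (-1.34).

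General epithelial genes were also lower. Of 16 tested, 10 were lower and 0 higher at an unadjusted p under 0.05, with a median of -0.50. Esrp1, an epithelial splicing regulator, differed by -1.04 (SE 0.33), the keratins Krt19 and Krt18 by -0.85 and -0.52, Epcam by -0.80 and E-cadherin, Cdh1, by -0.76. Adjusted for outcome 2 of 16 kept an unadjusted p under 0.05 and the median was -0.22. The list's level ran from -0.73 to 1.09 with placebo and from -0.62 to 0.14 with tamoxifen, and the highest animals were placebo 8, 7 and 9. Without these 3 animals the list gave 2 lower of 16 and a median of -0.15. The milk list then had 8 of 11 lower, with a median of -0.69. Leaving out the highest placebo animals of a list shrinks its downward difference by construction. The part of epithelial content in the milk and progenitor differences was not tested. As a description, the general epithelial list was also fitted as a covariate. In that fit 4 of 11 milk genes (median -0.65) and 3 of 11 luminal progenitor genes (median -0.11) were lower at an unadjusted p under 0.05. Of all genes 3.45% were lower there.

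Tight junction and connexin genes gave 6 lower and 0 higher of 11 tested, led by the gap junction protein Gjb2 (-1.36) and the claudin Cldn8 (-1.08). That list was highest in placebo animals 7 and 8 (1.27 and 1.05, against at most 0.48 in the others). It gave 2 lower with outcome in the fit and 4 lower without placebo animals 7, 8 and 9. Basal and myoepithelial genes gave 4 lower of 10, but 1 with outcome in the fit and 2 without those 3 animals, while Krt14 had -0.13 and the oxytocin receptor Oxtr 0.64. Adipoq, the fat hormone adiponectin, was at 14.06 ± 0.14 with placebo and 14.08 ± 0.07 with tamoxifen (SD, n = 10 each), a difference of 0.01 whose sign changed between fits. Leptin, Lep, had 0.78 and Plin4 0.32, the 2 of 12 white fat genes with an unadjusted p under 0.05.

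**Figure D3:**
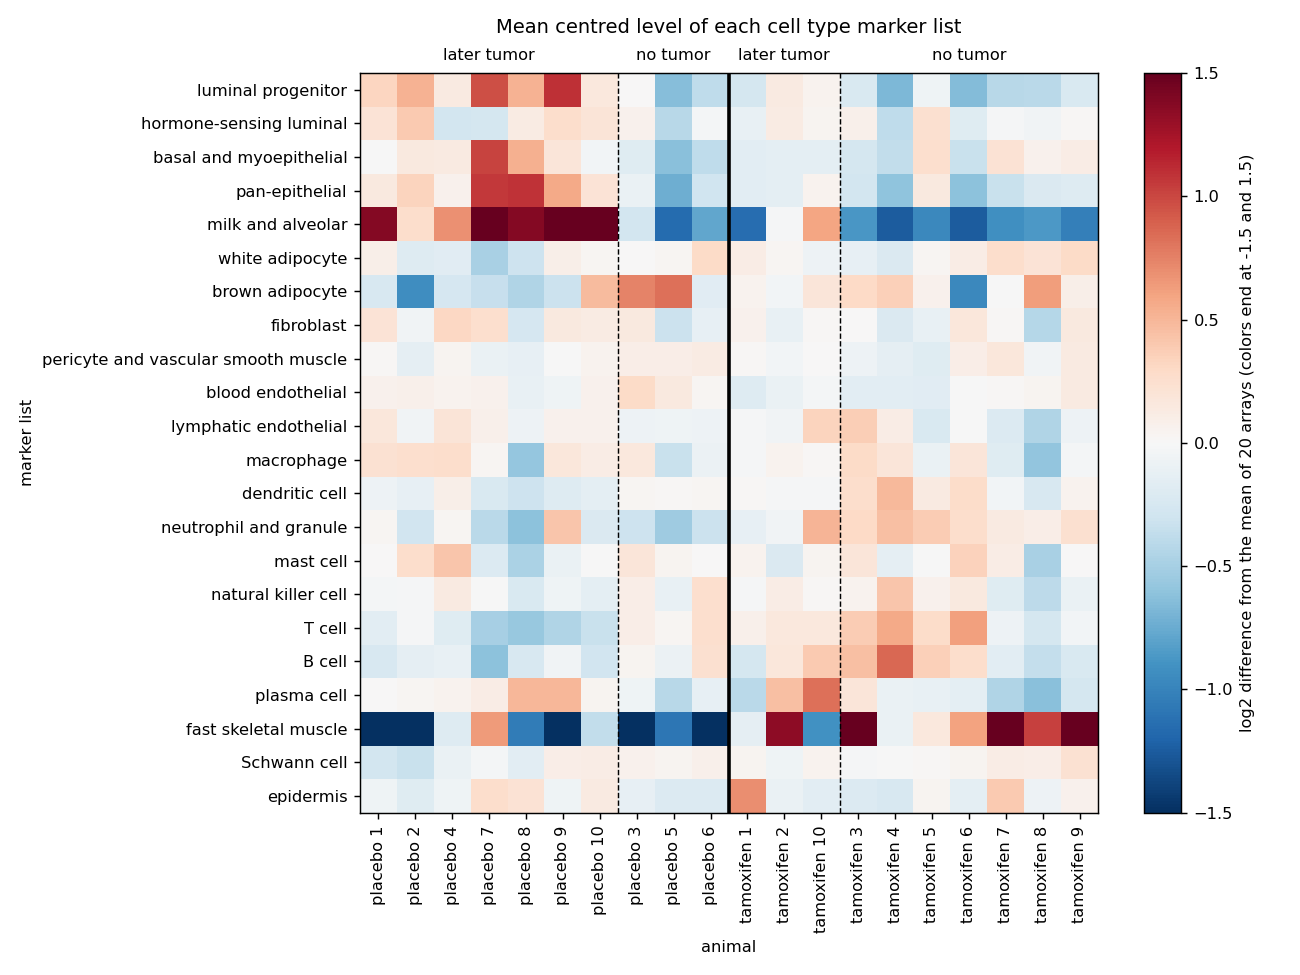
Mean centred log2 level of each marker list (rows) in each animal (columns), with animals ordered by treatment and later outcome and colors ending at -1.5 and 1.5. Milk genes are high in the placebo animals with later tumors, and fast muscle genes are high in most tamoxifen animals.

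T cell genes were higher, with 9 of 10 tested at an unadjusted p under 0.05, 0 lower and a median of 0.40. Cd3e, a chain of the T cell receptor complex, ranged from 9.47 to 10.08 (median 9.80) with placebo and from 9.87 to 10.38 (median 10.09) with tamoxifen. All 10 tamoxifen animals lay above the placebo median. The difference was 0.36 (SE 0.08, adjusted p = 0.0707). The coreceptor Cd4 differed by 0.38, Cd8a by 0.36, the costimulatory receptor Cd28 by 0.44 and the interleukin-7 receptor Il7r by 0.45. Adjusted for outcome 5 of 10 kept an unadjusted p under 0.05, and without placebo animals 7, 8 and 9 3 did, with a median of 0.27.

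B cell genes gave 6 higher and 0 lower of 10 tested, with a median of 0.32. The signalling chains Cd79a and Cd79b differed by 0.39 and 0.35, and the complement receptor Cr2 by 0.35. With outcome in the fit, and likewise without placebo animals 7, 8 and 9, 0 members were under 0.05 by limma's unadjusted p, with medians of 0.25 and 0.25. Whether a lymph node lay within a dissected gland is not given in the labels, and its part in these lists was not tested. Igha, the constant region of immunoglobulin A, lay on the other side, with a difference of -1.15 (SE 0.30), while 10 plasma cell genes had a median of -0.03.

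Dendritic cell genes gave 4 higher of 9, among them the chemokine receptor Ccr7 (0.49) and Flt3 (0.16), but 1 of 9 with outcome in the fit and 1 of 9 without placebo animals 7, 8 and 9. Neutrophil and granule genes gave 4 higher of 8 in both fits: Prtn3, the calcium-binding proteins S100a8 (0.60) and S100a9 (0.70), and Ngp (0.28). The defining granule protease Elane had -0.02. Macrophage genes had a median of 0.00, with Cd14 (-0.43) the only 1 of 12 under 0.05. Of 8 MHC class II genes all had higher means, and 1 had an unadjusted p under 0.05 (H2-Oa, 0.35). The interferon response gave 0 of 13 in either direction by limma's unadjusted p, and MHC class I 0 of 9.

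Blood endothelial genes differed little but in 1 direction, with 6 lower and 0 higher of 12 and a median of -0.13. Kdr, the main receptor of vascular endothelial growth factor, differed by -0.21 (SE 0.07) and the coreceptor Eng by -0.14 (SE 0.04). With outcome in the fit 7 members were under 0.05, with a median of -0.18. Fibroblast genes gave 4 lower of 12 (1 with outcome in the fit), led by fibulin-1, Fbln1 (-0.45), while the collagen genes Col1a1 and Col3a1 had 0.35 and 0.22 with an unadjusted p above 0.05. Of 12 matricellular genes 1 was higher (Thbs2, 0.49) and 3 were lower at an unadjusted p under 0.05, periostin, Postn (-0.69), fibronectin, Fn1 (-0.57) and Hmcn1 (-0.42), and the median was -0.05.

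**Figure D4:**
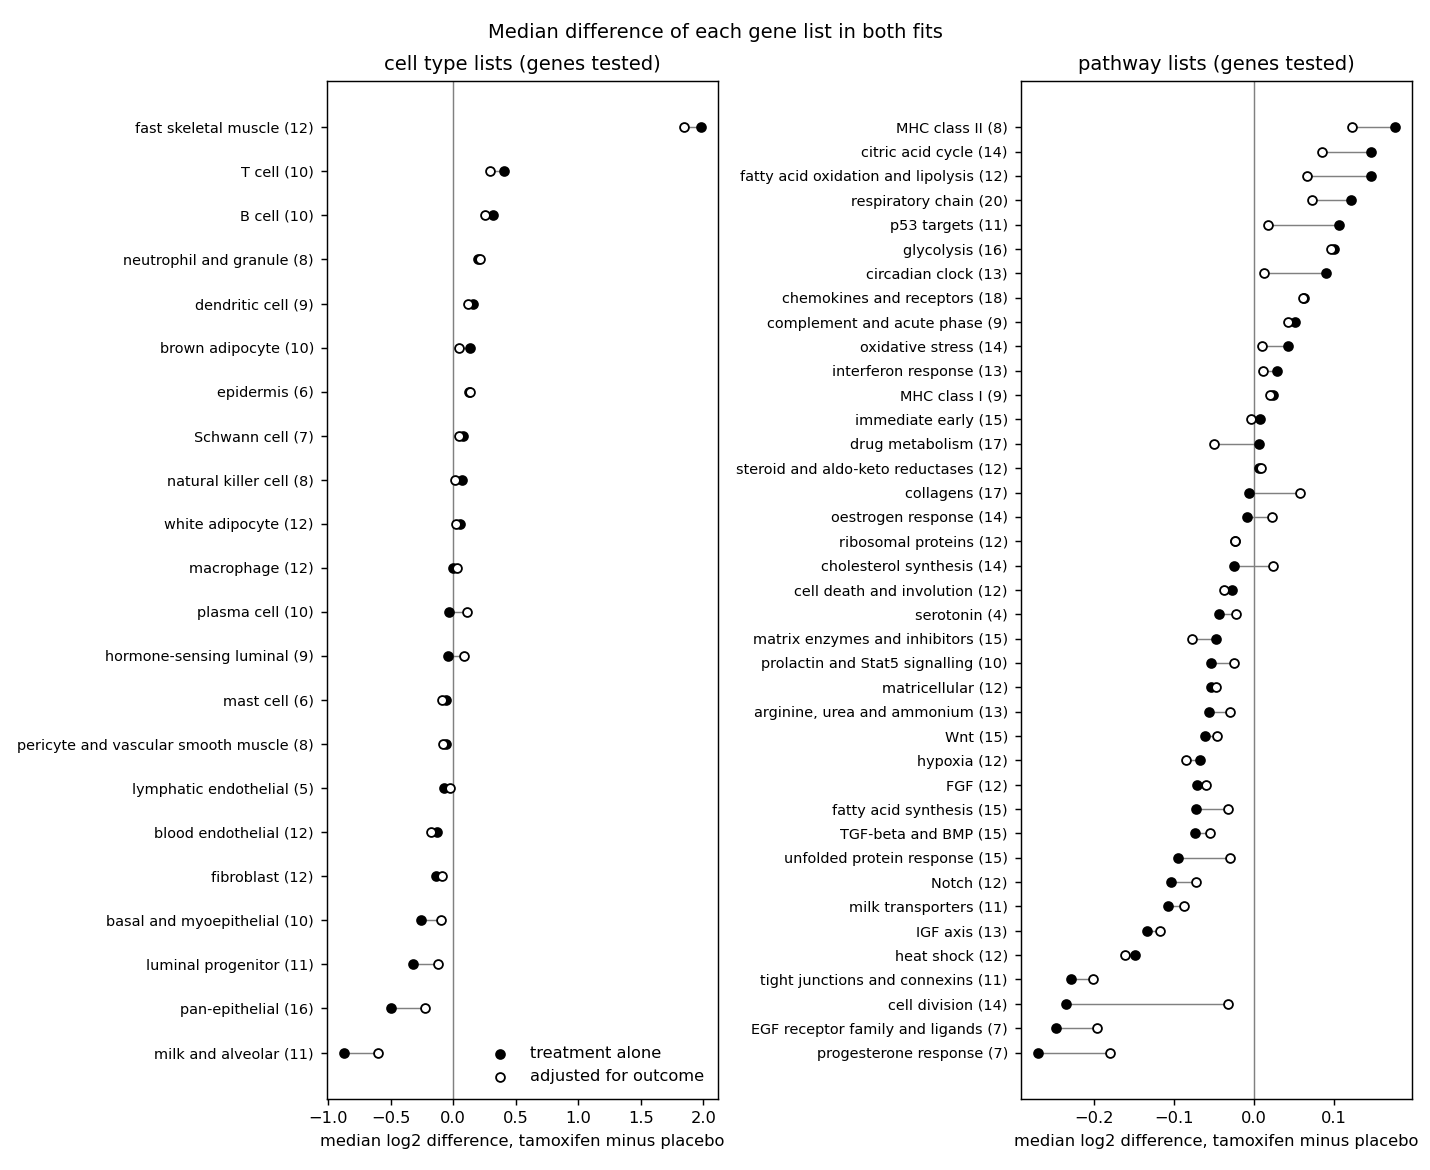
Median log2 difference (tamoxifen minus placebo) of the tested members of each list, for treatment alone (filled) and adjusted for outcome (open), with the number tested in parentheses. Fast muscle has the highest medians (1.98 and 1.85), and milk and alveolar genes the lowest (-0.87 and -0.60).

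Among hormone receptors, Esr1, the oestrogen receptor, ranged from 9.72 to 10.72 (median 10.00) with placebo and from 9.16 to 10.31 (median 9.76) with tamoxifen, a difference of -0.30 (SE 0.13, adjusted p = 0.316). Pgr, the progesterone receptor and a textbook oestrogen target, had 0.20 (SE 0.24). Of 14 oestrogen response genes, 0 were higher and 3 lower at an unadjusted p under 0.05 (Esr1, Gata3 and Xbp1), none with outcome in the fit, and the median was -0.01. The progesterone list gave 1 higher and 4 lower of 7, with Elf5, Id4 (-0.83), Wnt4 (-0.33) and Stat5a (-0.25) lower and a median of -0.27. Placebo animals 8 and 7 had by far the highest levels of that list (1.15 and 1.01, against at most 0.30 in the others), and without placebo animals 7, 8 and 9 it gave 1 higher and 1 lower, with a median of -0.16. Stat5b and Jak2, which act with Stat5a downstream of prolactin, had -0.02 and 0.01.

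In the EGF receptor family, Tgfa had -0.85 (SE 0.28, adjusted p = 0.187) and ranged from 7.64 to 10.27 with placebo and from 7.67 to 8.41 with tamoxifen. Its dimmer probe sets, with means of 7.46 and 6.71 over all arrays, differed by -0.16 and 0.23, so the probe sets did not share size or direction. The labels do not say whether the Tgfa probes also detect transgene RNA. The receptors Erbb2 and Erbb3 had -0.25 and -0.46, and Egfr itself -0.02. Of the 7 members tested 3 were lower at an unadjusted p under 0.05, and 0 were by limma's unadjusted p with outcome in the fit or without placebo animals 7, 8 and 9.

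The insulin-like growth factor (IGF) axis gave 1 higher and 4 lower of 13, with a median of -0.13. The lower members were the binding proteins Igfbp5 (-0.38, SE 0.10) and Igfbp3 (-0.36), the protease Pappa (-0.24), which cleaves such proteins, and Gpc3. With outcome in the fit 5 were lower, and 3 members were under 0.05 in the same direction in both fits. Igf1 and its receptor Igf1r had -0.01 and -0.07. Among Wnt genes 5 of 15 were lower and 1 higher. The ligands Wnt2 (-0.65) and Wnt4, the modulators Sfrp2 and Rspo1 (-1.32) and the receptor Lgr5 (-0.14) were lower, Lef1, a transcription factor of the pathway that lymphocytes also express, was higher (0.45), and the target Axin2 had 0.05. The Wnt list gave 1 higher and 2 lower with outcome in the fit, and without placebo animals 7, 8 and 9 0 higher and 3 lower. All 12 Notch genes tested had lower means, by at most 0.18, and 5 were under 0.05, among them Notch1 (-0.13) and its ligand Dll1 (-0.18), against 2 with outcome in the fit and 3 without those animals.

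Cell division genes gave 0 of 14 in either direction by limma's unadjusted p, with a median of -0.24, and of -0.03 with outcome. Mki67, which marks dividing cells, had -0.34 (SE 0.36), and its sign changed without placebo animals 7, 8 and 9 (0.22) and within animals 1 to 5 (0.35). Fatty acid synthesis (15 tested), cholesterol synthesis (14), fat oxidation (12), the citric acid cycle (14), the circadian clock (13) and ribosomal proteins (12) each had 0 members at an unadjusted limma p under 0.05. Of the citric acid cycle genes 13 of 14 had higher means, with a median of 0.15. Among 11 p53 targets, Gadd45a, a growth arrest gene, had 0.51 (SE 0.12) and Bbc3 0.13. Of 17 drug metabolism genes 3 were lower and 0 higher at an unadjusted p under 0.05, the cytochromes Cyp1b1 (-0.53) and Cyp2e1 (-0.30) and the monooxygenase Fmo2 (-0.27), while 9 of 17 had higher means and the median was 0.01. The folate receptor Folr1 (-1.06) and Tph1, the enzyme that starts serotonin synthesis (-1.15), were lower as well.

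With outcome as a covariate no gene passed by limma. The smallest adjusted p was 0.16, and 926 genes had an unadjusted p under 0.05 (7.41%), 451 higher and 475 lower. Of the 1739 genes under 0.05 for treatment alone, all 1739 kept their sign and 812 stayed under 0.05. Their differences shrank to a median of 0.796 of the size without the covariate, while the median SE over all genes went from 0.0611 to 0.0661. The outcome term of the same fit also had 0 genes that passed.

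The test of whether the treatment difference depends on later outcome gave 0 genes that passed by limma (smallest adjusted p = 0.26), with 565 at an unadjusted p under 0.05 (4.52%), of which those with a positive interaction were 1.82% and those with a negative one 2.7%. After Gng12 and Akr1cl, the genes with the smallest p were Pifo, Oxtr and Zfp469. Oxtr, which myoepithelial cells use to eject milk, had an interaction of -2.40.

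Animals carry numbers from 1 to 10 in each treatment, and list differences were recomputed within each run of 5, a comparison chosen after seeing the data. General epithelial genes had a median of -0.14 with 0 of 16 under 0.05 in animals 1 to 5, and -0.89 with 12 lower in animals 6 to 10. Blood endothelial genes showed -0.31 with 9 lower, then 0.05 with 0 lower, and cell division genes 0.23 with 9 higher, then -0.70 with 0 of 14. Placebo animals 7, 8 and 9 all belong to the run 6 to 10. Their general epithelial levels were 1.07, 1.09 and 0.57, against at most 0.33 in the other animals. The cell division level was 2.22 in placebo animal 8 and at most 0.43 in the others. How far these animals account for the differences between runs was not tested. The milk list was lower in both runs (-0.33 and -1.39), and the muscle (1.68 and 2.26) and T cell lists (0.36 and 0.43) were higher in both. The test of the difference between runs gave 0 genes that passed by limma (smallest adjusted p = 0.646). At an unadjusted p under 0.05 it gave 810 of 12499 genes (6.48%). The treatment difference was higher in animals 6 to 10 in 612 of them and lower in 198. Blood endothelial genes gave 6 of 12 higher, cell division genes 4 of 14 lower and general epithelial genes 1 of 16 lower. The milk list gave 2 of 11 lower, and the muscle and T cell lists 0. Lists were not tested, so differing counts alone do not show that the runs differ. What separates the runs is not given in the labels.

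**Figure D5:**
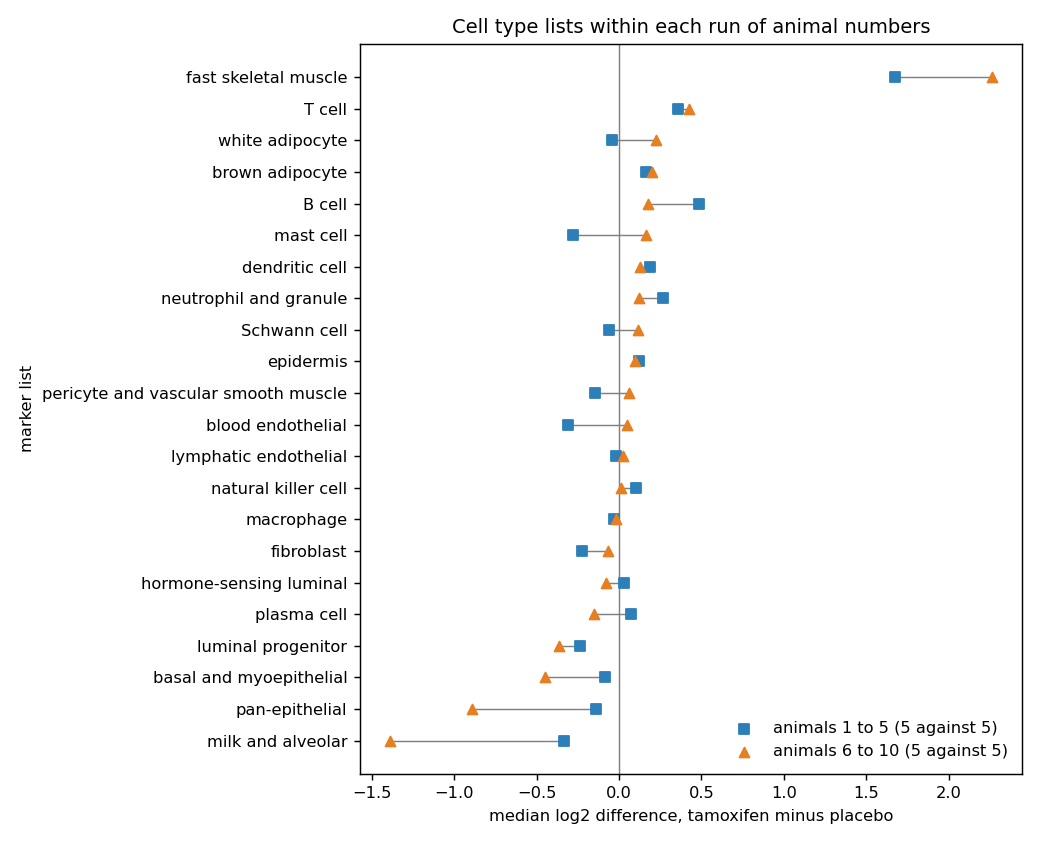
Median log2 difference (tamoxifen minus placebo, x axis) of each cell type list within animals 1 to 5 (squares) and 6 to 10 (triangles), 5 against 5 in each. Fast muscle is highest in both (1.68 and 2.26), and general epithelial genes lie at -0.14 and -0.89.

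Spread differed between the groups. The median SD over genes was 0.147 in placebo and 0.118 in tamoxifen animals, and 67.9% of genes had the larger SD in placebo. Without placebo animals 7, 8 and 9 the placebo median was 0.114 and the share 47.7%. Because these 3 stood apart from the other placebo animals, leaving them out lowers the placebo SD by construction.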

How the data were processed

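Total RNA from 20 glands was copied to biotin-labelled cRNA and hybridised to Affymetrix arrays, per the labels' protocols. The deposited values are RMA expression on the log2 scale, 1 per probe set, which the authors computed by RMA, per the submitters' processing notes. For the RMA software, its version and the build of the genome, no source used here gives a name. All 45101 probe sets had values between 3.38 and 14.55, and they were used as deposited. Of these, 34958 had 1 gene symbol in the platform annotation, 34754 of them traced through Entrez ID to a current symbol, 932 had several and 9211 none. Probe sets without a single symbol were left out. For each of 18194 genes the probe set of highest mean over all 20 arrays was kept. The 12499 genes with values above 6.85, the overall median, on 3 or more arrays were tested. A gene could thus enter through 1 treatment group alone, as Nmu, 1110017D15Rik and Rspo1 did.

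Treatment was fitted alone, with later outcome, and with its interaction with outcome, in limma 3.58.1 under R 4.3.3 (lmFit, then eBayes with neither trend nor robust estimation). Tests were two-sided, p-values were adjusted by Benjamini-Hochberg, and the threshold was 0.05. P-values weigh a difference against the spread between animals, and the number of animals limits the precision. A fold is 2 raised to the absolute log2 difference. The fits were tested on simulated data in which 12499 genes were drawn around the real means. A change of 1 was recovered in 100% of changed genes for treatment alone and in 98% with outcome. Of the calls in these simulations, 6.98% and 5.26% were false. In the real data larger differences, such as those of Csn2 (-4.34, SE 1.13) and Arg2 (-1.22, SE 0.23), did not pass. The recovery is therefore not the power for every real gene, and a gene that did not pass may differ by more than 1.

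There were 63 gene lists (24 for cell types, 39 for pathways) with 820 different genes, of which 751 had a probe set and 676 were tested. Genes without a matching probe set, Prlr and Areg among them, are not analysed here. The comparison, the members and the lists were chosen with earlier results of these data known, so lists are described by counts and medians with no test. Genes were named when they passed, had the 12 highest or lowest statistics or largest differences at an unadjusted p under 0.05, led the fits with outcome or a list, or were 1 of 14 fixed genes. Other genes given with values, including list members, were picked to describe a list after their values were seen. Promoter windows from RefSeq (GRCm38.p6) were searched for exact motif matches on both strands. Alternatives covered normalization, filters, probe sets, variance models, covariates, blocks and leaving out animals. Whether equal replicate numbers pair the samples was checked by correlating deviations from the group means: r was over 0.1 in 4 of 10 pairs. This cutoff had no reference from unmatched animals, so the check cannot exclude pairing. The numbers were not taken as pairs in the reported fits.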

Additional observations from a re-analysis of the deposited data

Results flagged for a closer look

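In 150 sets of 10 animals (75 genes in each treatment), 5 single values lay far from the other 9 by Dixon's criterion, and chance alone marks about 1 in 20 such sets. Tpst1 was at 9.38 in tamoxifen animal 5, below the others, and Muc13 at 6.52 in tamoxifen animal 2, below the others. Asic2 was at 7.05 in placebo animal 9, above the others. Krt18 was at 9.44 in placebo animal 5, the lowest, and Mki67 at 10.77 in placebo animal 8, the highest.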

How the results depend on the processing

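For treatment alone, limma called 1 gene in the reported fit. It called 2 with no filter on dim genes. It called 0 with the mean of all probe sets, with no moderation of variances, within animals 1 to 5 or 6 to 10, without placebo animals 7, 8 and 9, and with the skeletal muscle list as a covariate. Leaving out 1 animal gave from 0 to 110 genes, with 110 without placebo animal 6 and 59 without placebo animal 5. Array weights and the pan-epithelial covariate each gave 1 call too, but of another gene (Gpc3 and Cd24a). Adjusted for outcome the count was 0, and it was 1 with no filter, with the muscle covariate and with the pan-epithelial covariate, 7 within animals 1 to 5, and from 0 to 2 when 1 animal was left out (2 without tamoxifen animal 2). For the interaction it was 1 with array weights and from 0 to 3 when 1 animal was left out (3 without tamoxifen animal 3). With the replicate number as a block there were 235 calls for treatment alone, 1 adjusted for outcome and 2 for the interaction. The numbers were not taken to pair the animals. Only placebo animals 2 and 6 correlated best with the tamoxifen animal of their own number.

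Signs reversed in 54 of 5522 recomputed differences of 75 genes, and none of those genes had passed. For treatment alone the values were as follows. Array weights gave Krt14 0.11, Mki67 0.14 and Adipoq -0.023. Animals 1 to 5 gave Krt14 0.33, Mki67 0.35 and Adipoq -0.062. Without placebo animals 7, 8 and 9, Krt14 was 0.29, Mki67 0.22 and Adipoq -0.043. The muscle covariate, which contains the first 4 of these genes, gave Ckm -0.093, Myh4 -0.12, Tnni2 -0.062, Tnnt3 -0.13 and Oxtr -0.019. The pan-epithelial covariate, which contains Krt18, gave Kit 0.080, Krt14 0.49, Krt18 0.0052, Mki67 0.32 and Adipoq -0.054. Leaving out 1 animal moved Krt14 from -0.25 to 0.055 and Adipoq from -0.017 to 0.030.

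Adjusted for outcome, Mki67 was 0.25 with array weights and 0.34 within animals 1 to 5. Animals 6 to 10 gave Kit 0.018, Krt14 -0.18 and Mki67 0.0037. Without placebo animals 7, 8 and 9, Kit was 0.0155 and Mki67 0.33. The replicate block gave Wfdc18 0.076, Pgr -0.12, Kit 0.031 and Mki67 0.53. The muscle covariate gave Ckm -0.081, Myh4 -0.048, Tnni2 -0.048, Tnnt3 -0.17, Krt14 -0.38, Adipoq 0.0091 and Oxtr -0.045. The pan-epithelial covariate gave Wfdc18 0.0012, Kit 0.079, Krt18 0.019 and Mki67 0.32. Leaving out 1 animal moved Mki67 from -0.14 to 0.18, Adipoq from -0.031 to 0.012 and Krt14 from -0.0079 to 0.25. The cause of these changes was not tested, except that a covariate removes differences of its own members.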

Other observations

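Without the filter on dim genes a second gene passed beside Akr1cl. Tmtc2, a protein of the endoplasmic reticulum on chromosome 10, ranged from 6.22 to 6.65 in placebo and from 5.91 to 6.17 in tamoxifen animals, with no overlap. Its means were 6.46 ± 0.14 and 6.05 ± 0.09 (SD, n = 10 each), a difference of -0.41 (SE 0.05, limma, adjusted p = 0.00198), and of -0.37 adjusted for outcome (adjusted p = 0.0195). All of these values lie below the filter level of 6.85, and the gene's other probe set, with means of 5.36 and 5.28, differed by -0.08. The gene was singled out after its values were seen.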
